A study of Rattus norvegicus with 170 samples.

Results

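The genes described here are 5 hormones and markers of the rarer endocrine cells of the rat islet, *Sst*, *Ppy*, *Pyy*, *Hhex* and *Rbp4*. They were taken by symbol from the 24113 genes of the table, and each had a single row (NM_012659.1, NM_012626.2, NM_001034080.1, NM_024385.1 and NM_013162.1, in that order). Whole islets of wild type male Sprague Dawley rats, 8 weeks old, were hand-picked and cultured for 48 h at 5.5 mM glucose with 0.1% DMSO, the vehicle, or with 3 μM GNF4877, an aminopyrazine inhibitor of the kinases DYRK1A and GSK3B. After dispersal with trypsin, single cells were captured on Fluidigm C1 chips, and 86 DMSO cells and 84 GNF4877 cells were analysed. Neither an animal nor a second chip is named for any cell, which leaves 1 sample per treatment without replicates, and treatment, chip and sequencing lane cannot be told apart. No test was therefore run. Shares of cells carry exact Clopper-Pearson 95% intervals, which account for counting error and nothing else. Levels are in RPM, reads scaled to the mapped reads of each cell, are not divided by transcript length, and are not compared between genes. The mapped reads per cell ranged from 241604 to 2499138, and a median of 8889 genes was read in DMSO cells and 6754 in GNF4877 cells.

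Islets hold δ cells, which secrete somatostatin, and PP or γ cells, which secrete pancreatic polypeptide, among the more abundant β and α cells. Somatostatin, the product of *Sst*, restrains the release of insulin and glucagon from neighbouring cells, and the homeodomain factor encoded by *Hhex* maintains δ cells. Pancreatic polypeptide (*Ppy*) and peptide YY (*Pyy*) belong to the neuropeptide Y family of peptides, and *Rbp4* encodes a carrier of retinol that is used as a δ cell marker.

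*Sst* of 1000 RPM or more, here called Sst-high, was reached by 4 of 170 cells. They were 2 of 86 DMSO cells (2.33%, 0.283% to 8.15%) and 2 of 84 GNF4877 cells (2.38%, 0.290% to 8.34%), so the share at this threshold was similar in the treatments. In the DMSO arm cell 33 held 1672 RPM of *Sst* and cell 37 held 5747 RPM. In the GNF4877 arm cell 37 held 15778 RPM and cell 49 held 35288 RPM, both above either DMSO cell. No cell lay between 97.2 RPM, the highest value below the threshold, and 1672 RPM. The lowest *Sst* value was 0 in each treatment, and the median was 0 in DMSO and 1.20 RPM in GNF4877. Mean *Sst* was 90.8 RPM in DMSO cells and 618 RPM in GNF4877 cells, and the Sst-high cells held 95% and 98.3% of these sums. Without the highest cell of each treatment the means were 24.3 and 200.5 RPM.

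*Ppy* of 1000 RPM or more (Ppy-high) was reached by 15 of 170 cells. They were 8 of 86 DMSO cells (9.30%, 4.10% to 17.5%) and 7 of 84 GNF4877 cells (8.33%, 3.42% to 16.4%), again similar shares. The 8 DMSO cells ranged from 1244 RPM (cell 79) to 111371 RPM (cell 42), with a median of 7807 RPM. The 7 GNF4877 cells ranged from 2293 RPM (cell 38) to 70421 RPM (cell 73), with a median of 30112 RPM, and the ranges of the treatments overlapped. Between these were DMSO cells 27 (4881 RPM), 65 (5775 RPM), 31 (7757 RPM), 19 (7857 RPM), 29 (45020.5 RPM) and 22 (50139 RPM). The other GNF4877 cells were 8 (5480 RPM), 59 (15428 RPM), 33 (30112 RPM), 50 (41535 RPM) and 62 (59532 RPM). Just below the threshold lay GNF4877 cells 53 (813 RPM), 94 (752 RPM) and 9 (201 RPM), all of which were also *Gcg* cells, while the highest such DMSO cell held 75.8 RPM. Over all cells the lowest value was 0 in each treatment, and the medians were 2.84 RPM in DMSO and 3.38 RPM in GNF4877. Mean *Ppy* was 2728 RPM in DMSO cells and 2702 RPM in GNF4877 cells, and 1449.8 and 1886 RPM without the highest cell of each. No cell was both Sst-high and Ppy-high, which for 4 Sst-high cells allows a share of up to 60.2%, and the Sst-high cells held 2.33 to 60.5 RPM of *Ppy*.

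**Figure D1:**
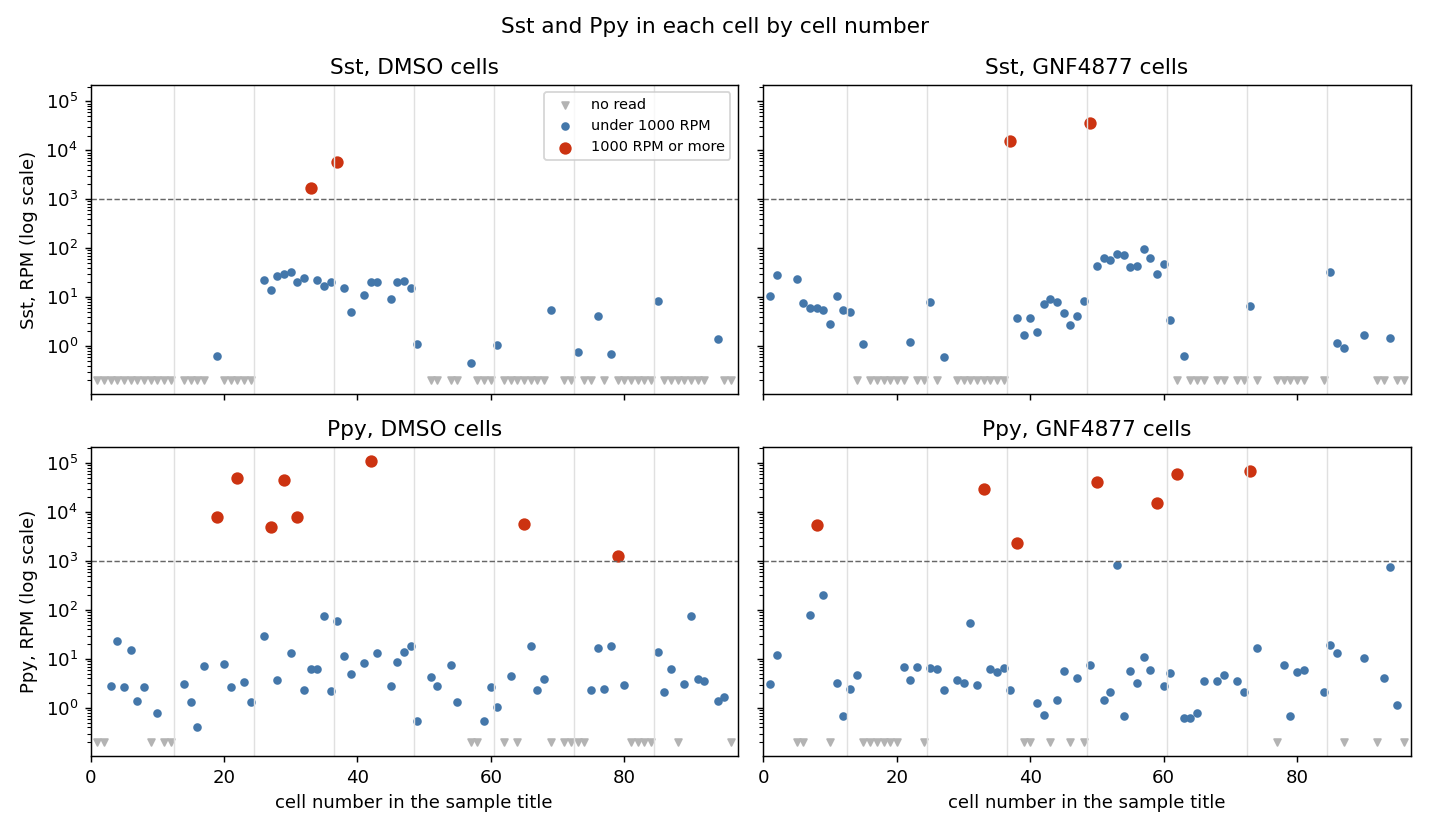
*Sst* (top) and *Ppy* (bottom) in RPM, on a log axis, for each DMSO cell (left) and GNF4877 cell (right) against the number in the cell's title. Grey lines part the numbers into runs of 12, the dashed line marks 1000 RPM, red points are the 4 Sst-high and 15 Ppy-high cells, and grey triangles are cells with no read. Low *Sst* values fill the runs that hold the Sst-high cells.

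Most of the high cells also held another islet hormone. Of the 4 Sst-high cells, 2 held 1000 RPM or more of *Ins1*, the main insulin gene scored here (50%, 6.76% to 93.2%), and 1 held as much *Gcg*, the glucagon gene (25%, 0.631% to 80.6%). DMSO cell 33 held 314647 RPM of *Gcg* with 45.3 RPM of *Ins1*. DMSO cell 37 held 3311 RPM of *Ins1*, and GNF4877 cell 37 held 29108 RPM. GNF4877 cell 49, with the most *Sst*, was below the threshold for *Ins1* (36.2 RPM), *Gcg* (81.8 RPM) and *Ppy* (7.61 RPM). It held 5450 RPM of *Iapp*, the amylin gene.

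Among Ppy-high cells, *Ins1* reached 1000 RPM in 7 of 8 DMSO cells (87.5%, 47.3% to 99.7%) and in 2 of 7 GNF4877 cells (28.6%, 3.67% to 71%). *Gcg* reached it in 5 of 8 DMSO cells (62.5%, 24.5% to 91.5%) and 2 of 7 GNF4877 cells (28.6%, 3.67% to 71%). The intervals overlap for either hormone. With a threshold of 100 RPM for every hormone *Ins1* was found in 7 of 8 DMSO (87.5%) and 3 of 10 GNF4877 cells (30%). *Gcg* was then found in 7 of 8 (87.5%) and 7 of 10 (70%). Over all cells *Gcg* reached 100 RPM in 48 of 86 DMSO (55.8%) and 39 of 84 GNF4877 cells (46.4%), and *Ins1* in 83 and 63. At 10000 RPM for every hormone *Ins1* was found in 1 of 3 DMSO and 1 of 5 GNF4877 cells. *Gcg* was then found in 0 of 3 and 1 of 5, which reverses the order of the arms. At 1000 RPM the 5 DMSO cells with *Gcg* all held *Ins1* as well, so they carried 3 hormones. In GNF4877 0 of 7 cells did (up to 41%), although cell 50 held 12699 RPM of *Ins1* with 151 RPM of *Gcg*. DMSO cell 29 and GNF4877 cells 33, 62 and 73 held *Ppy* alone among the 4 hormones at 1000 RPM, with 45020.5, 30112, 59532 and 70421 RPM of it. Of these, GNF4877 cell 73 alone did so at 100 RPM. DMSO cell 29 and GNF4877 cell 62 held 163 and 149 RPM of *Gcg*, and GNF4877 cell 33 held 116 RPM of *Ins1*. Such values were common, since 87 of all 170 cells held 100 RPM or more of *Gcg* and 146 held as much *Ins1*. In the 108 cells with *Ins1* alone at 1000 RPM, *Gcg* had a median of 74.1 RPM and reached 865 RPM. The median *Ppy* of the 11 Ppy-high cells with *Ins1* or *Gcg* of 1000 RPM was 7757 RPM. DMSO cells 22 and 42 and GNF4877 cell 50 among them lay above 30112 RPM. At 1000 RPM the whole arms differed in the same direction as their Ppy-high cells. *Ins1* reached it in 78 of 86 DMSO cells and 59 of 84 GNF4877 cells. *Gcg* reached it in 27 of 86 (31.4%) and 19 of 84 (22.6%). *Ins1* with *Gcg* but without *Sst* or *Ppy* was found in 17 DMSO cells and 1 GNF4877 cell. Cells with *Gcg* alone of the 4 hormones went the other way, with 4 in DMSO and 16 in GNF4877. Doublets were not removed by computation. The labels state that ports were inspected by microscopy for single cells. In DMSO the 26 cells with more than 1 hormone had a median of 9027.5 genes read, against 8614.5 in the 58 cells with 1 hormone. In GNF4877 the medians were 7339 genes in 6 such cells and 6745 genes in 75. The part of doublets in these counts was not tested.

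**Figure D2:**
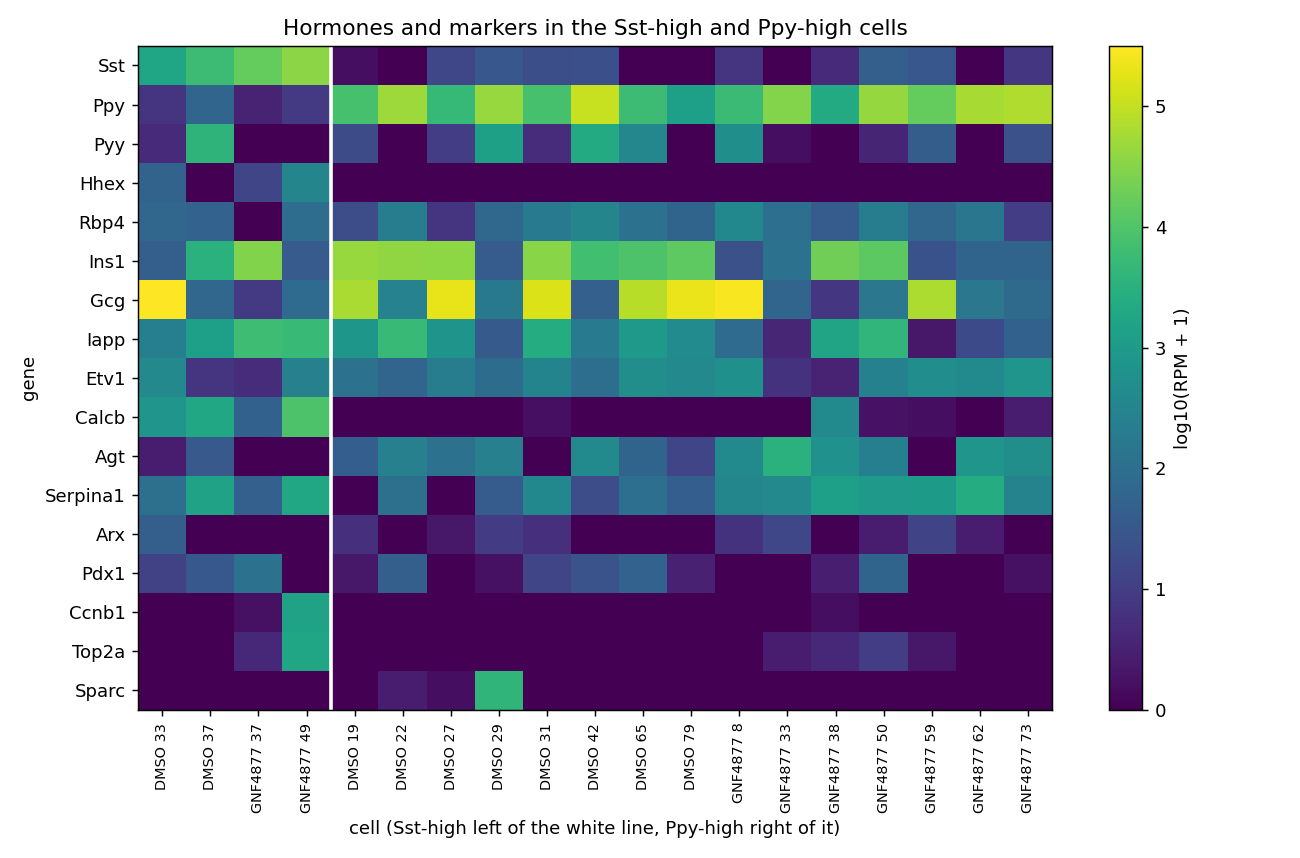
Colour gives log10(RPM + 1) of 17 named genes (rows) in each Sst-high and Ppy-high cell (columns, named by treatment and number). The 4 Sst-high cells stand left of the white line and the 15 Ppy-high cells right of it. *Rbp4* and *Etv1* are read in all of the Ppy-high cells, *Hhex* in none, and mesenchymal *Sparc* stands out in DMSO cell 29.

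*Pyy* followed *Ppy* in part. It was read in 30 of 86 DMSO cells (34.9%, 24.9% to 45.9%) and 15 of 84 GNF4877 cells (17.9%, 10.4% to 27.7%). Low *Pyy* reads in DMSO were more frequent in cells that shared a number run, or a place in a run, with a cell of 1000 RPM or more of *Pyy*, and GNF4877 had no such cell, so the part of this in the shares was not tested. *Pyy* reached 10 RPM in 8 of 86 DMSO cells (9.30%) and 6 of 84 GNF4877 cells (7.14%). The lowest value and the median were 0 in each treatment, and the highest was 3776 RPM in DMSO and 537 RPM in GNF4877. DMSO cells 37 (3776 RPM), 42 (2294 RPM) and 29 (1302 RPM) reached 1000 RPM and no GNF4877 cell did, a share of 0 of 84 that allows up to 4.30%. Mean *Pyy* was 93.6 RPM in DMSO and 10.4 RPM in GNF4877, and 50.3 and 4.04 RPM without the highest cell of each. A *Pyy* read was found in 11 of 15 Ppy-high cells (73.3%, 44.9% to 92.2%) and in 34 of the other 155 cells (21.9%, 15.7% to 29.3%). The cell with the most *Pyy*, DMSO cell 37, was Sst-high and held 60.5 RPM of *Ppy*, while GNF4877 cells 37 and 49 had no *Pyy* read. *Ppy* and *Pyy* are neighbouring genes in the RefSeq gene table of assembly GRCr8, with 0 protein-coding genes between them.

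*Hhex* was the member most restricted to Sst-high cells. It was read in 4 of 86 DMSO cells (4.65%, 1.28% to 11.5%) and 3 of 84 GNF4877 cells (3.57%, 0.743% to 10.1%), with a lowest value and a median of 0. It reached 10 RPM in 3 cells, all Sst-high, namely GNF4877 cell 49 (314 RPM, 495 reads), DMSO cell 33 (56.6 RPM, 65 reads) and GNF4877 cell 37 (13.2 RPM, 17 reads). The remaining Sst-high cell, DMSO cell 37, had no *Hhex* read. The other 4 cells with *Hhex* held 1 read each and at most 4.14 RPM, and all were cells with *Ins1* alone. *Hhex* had no read in the 15 Ppy-high cells, which allows a share of up to 21.8%.

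*Rbp4* was not confined to Sst-high cells. It was read in 32 of 86 DMSO cells (37.2%, 27% to 48.3%) and 32 of 84 GNF4877 cells (38.1%, 27.7% to 49.3%), with a lowest value and median of 0 and a highest value of 317 and 565 RPM. All 15 Ppy-high cells held it, from 5.73 to 361 RPM with a median of 102 RPM. It was also read in 3 of 4 Sst-high cells (63.6, 53.4 and 92 RPM, and 0 in GNF4877 cell 37). Of 38 cells with *Gcg* but neither *Sst* nor *Ppy* of 1000 RPM, 37 held *Rbp4* (97.4%, 86.2% to 99.9%), up to 565 RPM in GNF4877 cell 71, the highest value of all. By contrast 6 of 108 cells with *Ins1* alone held a read (5.56%, 2.07% to 11.7%), none above 1.24 RPM. As a marker *Rbp4* was thus not specific to *Sst* cells in these data, since cells with *Gcg* or *Ppy* held it too. Its mean log2(RPM + 1) was 5.48 in the 57 cells with *Gcg*, *Sst* or *Ppy* and 0.05 in the 108 cells with *Ins1* alone, a difference of 5.43. Of 14119 genes read in 10 or more cells, 3.15% were higher by 1 or more in that comparison and 3.82% lower, and *Sst* and *Ppy*, which helped to define the cells, are not read against this share.

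**Figure D3:**
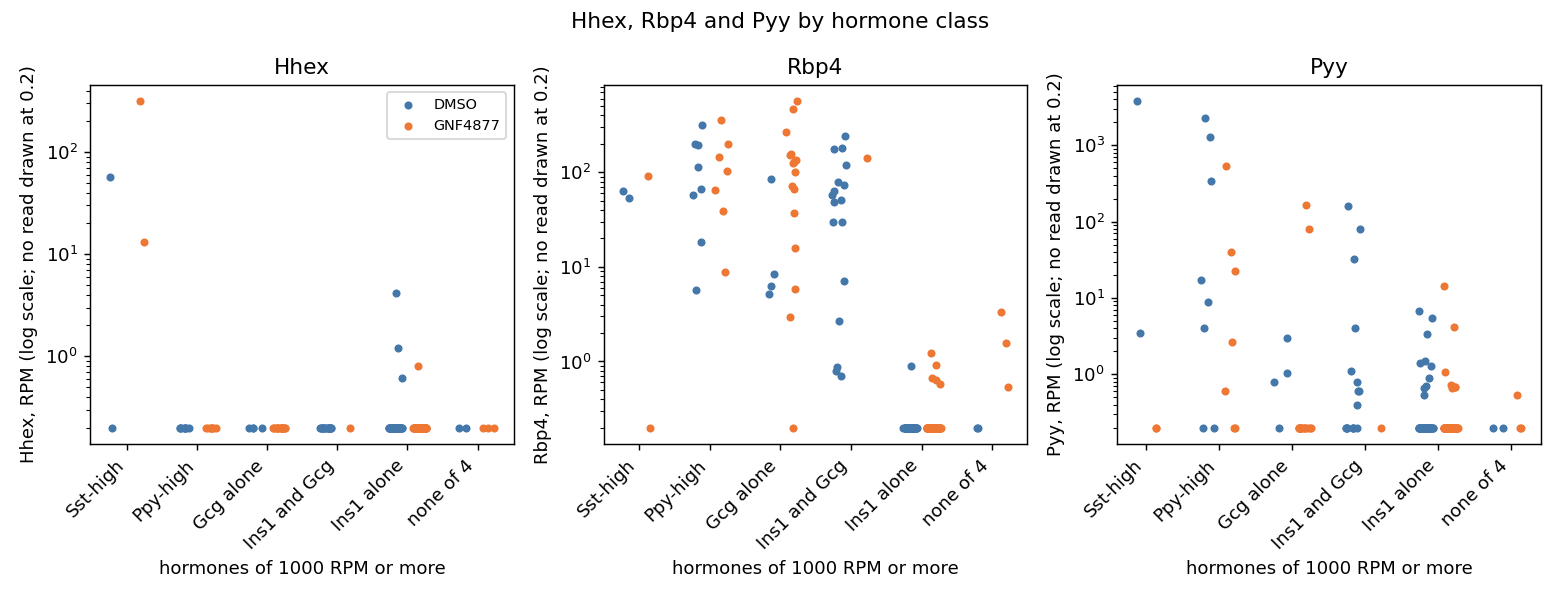
*Hhex*, *Rbp4* and *Pyy* in RPM on a log axis, with cells that had no read drawn at 0.2, by the hormones that reached 1000 RPM. Each point is a cell, blue for DMSO and orange for GNF4877, and the last class holds the cells in which none of *Ins1*, *Gcg*, *Sst* and *Ppy* reached it. *Hhex* rises above 10 RPM in Sst-high cells alone, and *Rbp4* is nearly absent from the 108 cells with *Ins1* alone.

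Between the arms, 0 of the 4 members read in 10 or more cells differed by 1 or more in mean log2(RPM + 1), *Hhex* being read in 7. The differences of GNF4877 from DMSO were 0.73 for *Sst*, 0.04 for *Ppy*, 0.06 for *Rbp4* and -0.58 for *Pyy*. Over all 14119 genes 0.97% were higher and 25.1% lower by 1 or more, with a median of -0.50. Fewer genes were read in GNF4877 cells, and the part of this in the differences was not tested.

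Low *Sst* values followed the numbers in the cell titles, a pattern noticed after the data were seen. Below the threshold *Sst* was read in 29 of 84 DMSO cells and 45 of 82 GNF4877 cells. With the numbers parted into runs of 12, every one of the 19 other DMSO cells in the runs of the Sst-high cells (25 to 36 and 37 to 48) held *Sst*, at 4.89 to 32.3 RPM, against 10 of 65 cells in other runs (15.4%, 7.63% to 26.5%). In GNF4877 all 22 other cells of runs 37 to 48 and 49 to 60 held *Sst*, at 1.69 to 97.2 RPM, against 23 of 60 in other runs (38.3%, 26.1% to 51.8%). All 10 GNF4877 cells numbered 1 to 12 held it too, at 2.82 to 27.7 RPM, although none of those analysed was Sst-high. Cells at the same place in another run as an Sst-high cell held a read in 6 of 10 (DMSO) and 6 of 6 (GNF4877) cases, and cells sharing neither run nor place in 4 of 55 and 17 of 54. Reads of *Ppy* and *Pyy* below 1000 RPM showed like patterns in part. *Ppy* was read in 47 of 56 other GNF4877 cells in the runs of Ppy-high cells (83.9%, 71.7% to 92.4%), in 8 of 10 at the same place in another run (80%, 44.4% to 97.5%) and in 3 of 11 sharing neither (27.3%, 6.02% to 61%). In DMSO the counts were 35 of 46, 13 of 14 and 10 of 18. *Pyy* in DMSO was read in 9 of 18, 9 of 15 and 9 of 50 cells (18%, 8.58% to 31.4%) in the same order, taken from the 3 cells with 1000 RPM or more of it. The labels do not say what a number stands for, and the cause was not tested. Of the cells with *Ins1* alone, in which *Sst* would not be looked for, 45 of 108 held an *Sst* read (41.7%, 32.3% to 51.5%), at a median of 1319160 mapped reads against 1280360 in the 57 cells with another hormone. The share of cells with any *Sst* read, 36% (26% to 47.1%) in DMSO and 56% (44.7% to 66.8%) in GNF4877, is therefore given with this pattern beside it, and *Sst* reached 10 RPM in 22.1% and 21.4% of cells. *Ppy* had a read in 76.7% (66.4% to 85.2%) of DMSO and 77.4% (67% to 85.8%) of GNF4877 cells, among them 76 of 108 cells with *Ins1* alone, at no more than 29.7 RPM.

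Leaving out *Sst*, which defined the cells, 3 of the 4 δ markers read in 10 or more cells were higher by 1 or more in mean log2(RPM + 1) in the Sst-high cells than in the others, and without GNF4877 cell 49 the count was 1. Of all 14119 genes 24.5% were higher and 6.49% lower, and without cell 49 the share higher was 29.6%. The median difference was 1.30 for these 4 and 0.21 for all genes, and without that cell 0.52 and 0.34. In Ppy-high cells 2 of the 5 δ markers with *Sst* were higher by 1 or more, beside 7.66% of all genes. The ghrelin receptor gene *Ghsr* had no read in any Sst-high or Ppy-high cell, and *Crhr2*, a urocortin receptor gene, had 8.06 RPM in DMSO cell 37 alone. The calcium-sensing receptor gene *Casr* was read in 2 of 4 Sst-high cells (47.4 and 19 RPM in GNF4877 cells 37 and 49), and in 7 of 15 Ppy-high cells, up to 178 RPM. *Ffar4*, a fatty acid receptor gene, was read in 2 of 4 and 5 of 15, up to 153 RPM in GNF4877 cell 59. *Lepr*, the leptin receptor gene, reached 238 RPM in GNF4877 cell 38, which was Ppy-high. Of the 151 cells that were neither Sst-high nor Ppy-high, 42 held a *Casr* read, up to 836 RPM. *Ffar4* was read in 8 of these 151, up to 58.7 RPM, and *Lepr* in 39, up to 25.6 RPM.

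Leaving out *Ppy*, 3 of 5 γ markers read in 10 or more cells were higher by 1 or more in Ppy-high cells, with a median difference of 1.38 against 0.12 for all genes, of which 7.66% were higher and 2.27% lower. In Sst-high cells 3 of the 6 γ markers with *Ppy* were higher by 1 or more, with and without GNF4877 cell 49, beside 24.5% and 29.6% of all genes. *Etv1*, a transcription factor gene, was among the markers higher in Ppy-high cells. It was read in 15 of 15 Ppy-high cells, from 2.50 to 741 RPM, in 4 of 4 Sst-high cells and in 53 of the other 151. It was not particular to Ppy-high cells. Where *Ppy*, *Sst* or *Gcg* reached the threshold, 55 of 57 cells held *Etv1*, up to 1375 RPM. With *Ins1* alone 13 of 108 cells did, at no more than 9.76 RPM. *Meis2* was read in 15 of 15 Ppy-high cells, but likewise in 90.1% of the 151 cells that were neither Sst-high nor Ppy-high. *Id4* had no read in Ppy-high cells, and *Fxyd2* was read in DMSO cell 19 alone of these (4.47 RPM).

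Several receptor genes for these peptides were not detectable in the high cells at this depth. *Sstr1*, *Sstr4*, *Sstr5*, *Npy2r* and *Npy4r* had no read in any of the 19. Of these *Sstr5* was read in 2 of all 170 cells and the others in none. The 10 ligand and receptor genes listed with the somatostatin and neuropeptide Y families included *Ucn3* and *Lepr* from outside these families. Of the 10, 2 were higher and 2 lower by 1 or more in Sst-high cells, beside 24.5% and 6.49% of all genes. Without GNF4877 cell 49, 2 were higher and 1 lower, beside 29.6% of all genes higher. In Ppy-high cells 3 were higher and 1, *Ucn3*, lower, beside 7.66% and 2.27%. *Sst* and *Ppy*, which defined the cells, are among those counted as higher. The somatostatin receptor gene *Sstr3* was read in 9 of 15 Ppy-high cells, highest in GNF4877 cells 59 (651 RPM) and 62 (602 RPM). It was also read in 75 of the 151 cells that were neither, up to 689 RPM. *Sstr2* was read in 5 of 15, up to 113 RPM in DMSO cell 27, and in 20 of the 151, up to 219 RPM. *Npy1r* was read in 15 of 15 Ppy-high cells at no more than 8.07 RPM, and in 113 of the other 151 cells.

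Of 10 genes for prohormone processing and granule proteins, 5 were higher by 1 or more in Sst-high cells and 2 in Ppy-high cells, with 1 lower in the latter. These counts and those of the lists that follow stand beside 24.5% of all genes higher and 6.49% lower in Sst-high cells (29.6% higher without GNF4877 cell 49), and 7.66% and 2.27% in Ppy-high cells. The granin gene *Chgb* reached 29637 RPM in GNF4877 cell 49 and 3977, 2020 and 2961 RPM in the other Sst-high cells (DMSO 33, DMSO 37 and GNF4877 37), while the highest value among the 151 cells that were neither was 3774 RPM. Of 13 islet transcription factors, 3 were higher and 1 lower in Sst-high cells (7 and 1 without GNF4877 cell 49), and 4 and 1 in Ppy-high cells. *Pdx1*, the gene of a factor of β and δ cells, was at 110, 32.3, 10.5 and 0 RPM in GNF4877 37, DMSO 37, DMSO 33 and GNF4877 49. Of 5 genes of retinoid handling, 2 were higher in each kind of high cell, *Rbp4* among them.

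GNF4877 cell 49 also held reads of cell cycle genes, and it and DMSO cell 29 were singled out after their values were seen. *Top2a* was at 1704 RPM, *Ccnb1* at 1460, *Cdk1* at 868, *Cdc20* at 643, *Mki67* at 608, *Ccnb2* at 185 and *Ccna2* at 158 RPM there, and *Kifc1* had no read. The 8 cell cycle genes summed to 5627 RPM in it, and to 0.871, 41.3 and 231 RPM in DMSO 33, DMSO 37 and GNF4877 37. Among the 151 cells that were neither Sst-high nor Ppy-high this sum had a median of 1.62 RPM and reached 8169.7 RPM. All but 1 of the 8 were higher by 1 or more in Sst-high cells, and without cell 49 the count was 2. In Ppy-high cells 0 of 8 were higher and 1, *Cdk1*, lower by 1 or more, and the sum was highest in GNF4877 cell 38, at 156 RPM.

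DMSO cell 29 was the DMSO cell in which *Ppy* alone of *Ins1*, *Gcg*, *Sst* and *Ppy* reached 1000 RPM, and it held 1302 RPM of *Pyy*. It held all 8 mesenchymal markers, which summed to 9599 RPM. *Sparc* was the most abundant (3875 RPM), then *Col3a1* (2734 RPM) and *Col1a1* (1496 RPM). In no other high cell did that sum pass 4.74 RPM, but it reached 20055 RPM among the 151 cells that were neither Sst-high nor Ppy-high. It also held *Pecam1* (56.1 RPM), an endothelial marker, and *Spp1* (842 RPM), a duct marker, and its *Ins1* was at 37.9 RPM. *Pecam1* had no read in the other 18 high cells, while *Spp1* was at 804 RPM in GNF4877 cell 59, and another endothelial gene, *Esam*, was at 123 RPM in DMSO cell 79 and 64.5 RPM in GNF4877 cell 50. Duct markers summed to 1253 RPM in GNF4877 cell 59, 947 RPM in DMSO cell 29 and from 3.95 to 491 RPM in the other high cells. The part of these markers in its *Ppy* and *Pyy* values was not tested. Without this cell 7 of 7 Ppy-high DMSO cells held *Ins1*. Acinar, immune and glial markers were low in the high cells, with highest sums of 72.6 RPM (DMSO 37), 89.9 RPM (DMSO 31) and 8.13 RPM (GNF4877 38), and the ε cell gene *Ghrl* had no read.

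Beyond the lists, the 10 genes highest in Sst-high cells over the other 166, among those read in 50% or more of them, were *Sst*, *Calcb*, *Serpina1*, *Calml4*, *F3*, *Ctsh*, *Stk32a*, *Hsd17b11*, *Dscam* and *Cd44*. *Calcb*, a gene for a calcitonin gene-related peptide, was at 723, 1919, 49.7 and 9380 RPM in DMSO 33, DMSO 37, GNF4877 37 and GNF4877 49, a difference of 9.19 in mean log2(RPM + 1) and 8.07 without cell 49. For Ppy-high cells over the other 155 the 10 were *Ppy*, *Agt*, *Serpina1*, *Etv1*, *Rbp4*, *Serpina3n*, *Wsb1*, *Kcnk16*, *Rbms3* and *Id3*. Several were not particular to Ppy-high cells. The 57 cells with *Gcg*, *Sst* or *Ppy*, which include these 15, were likewise ranked over the 108 with *Ins1* alone. There *Etv1*, *Serpina3n*, *Rbp4*, *Serpina1* and *Kcnk16* ranked 2 to 6 in that order, and *Ctsh* ranked 9. *Agt*, the angiotensinogen gene, was read in 13 of 15 Ppy-high cells, up to 3239 RPM in GNF4877 cell 33, and in 34 of the other 155. *Rbp4* was higher by 4.81 in mean log2(RPM + 1).

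Likeness across the 170 cells was taken as Pearson's r of log2(RPM + 1), over genes read in 10 or more cells. It pools the cells of both treatments, so a difference between the arms enters r. The cells of a treatment are 1 sample and not replicates. The genes most like *Rbp4* were *Etv1* (r = 0.876), *Gcg* (0.740), *LOC299282* (0.701), *Serpina3n* (0.690) and *Serpina1* (0.690). Within the arms the r of *Etv1* with *Rbp4* was 0.857 in DMSO and 0.894 in GNF4877. Those most like *Ppy* were *Agt* (0.617), *Rbp4* (0.527), *Serpina1* (0.509), *Etv1* (0.507) and *Rbms3* (0.506), followed by *Pyy* (0.495). Those most like *Pyy* were *Rbms3* (0.516), *Tpst1* (0.499), *Ppy* (0.495), *Gstm1* (0.469) and *Zfhx4* (0.465). The genes most like *Sst* were *Calcb* (0.482), *Ptgds* (0.369), *Hsd17b11* (0.359), *A2m* (0.358) and *Degs2* (0.353), and of these only *Calcb* was also among its 5 nearest by Spearman's rho. With *Sst* values under 100 RPM set to 0 the r with *Calcb* was 0.632. *Hhex*, read in 7 cells, was nearest to *A2m* (0.702), *Vtcn1* (0.577), *Sst* (0.557), *Calcb* (0.543) and *Adora2a* (0.537), values that rest on those few cells. For *A2m* and *Vtcn1* the r with *Hhex* was -0.02 and -0.06 in DMSO, and 0.918 and 0.797 in GNF4877. GNF4877 cell 49 held 143 and 36.8 RPM of them, and no other cell held more than 2.11 and 3.35 RPM. The r of *A2m* with *Sst* was -0.04 in DMSO and 0.509 in GNF4877.

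The promoters of the 3 hormone genes are printed because *Sst* and *Ppy* set the cells apart and *Ppy* and *Pyy* are neighbours found in shared cells. All 5 members matched the RefSeq promoter table of assembly GRCr8, which gives 250 bases before and 50 after each start. Searched on either strand, with the motifs chosen after the sequences were seen and no overlap between them, were TGACGTCA, the cyclic AMP response element, held by 1.83% of 33469 promoters of 300 bases, and the TATA box motif, spelled TATAAA, held by 14.2%. The first was found for *Sst*, from base 3 after the table's start, and the second for *Ppy*, from base 32 before it, and for *Rbp4*, from base 50 before it. Neither was found in the windows of *Pyy* and *Hhex*. The matches, in capitals, are a description and were not tested for any part in these levels.
*Sst*, chr11:90461296-90461595, plus strand: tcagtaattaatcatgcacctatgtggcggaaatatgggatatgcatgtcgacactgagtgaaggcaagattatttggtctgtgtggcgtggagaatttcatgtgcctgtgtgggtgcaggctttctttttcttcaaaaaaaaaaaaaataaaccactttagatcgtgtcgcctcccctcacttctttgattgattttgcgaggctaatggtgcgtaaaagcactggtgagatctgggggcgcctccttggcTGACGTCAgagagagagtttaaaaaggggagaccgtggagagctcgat
*Ppy*, chr10:87556187-87556486, minus strand: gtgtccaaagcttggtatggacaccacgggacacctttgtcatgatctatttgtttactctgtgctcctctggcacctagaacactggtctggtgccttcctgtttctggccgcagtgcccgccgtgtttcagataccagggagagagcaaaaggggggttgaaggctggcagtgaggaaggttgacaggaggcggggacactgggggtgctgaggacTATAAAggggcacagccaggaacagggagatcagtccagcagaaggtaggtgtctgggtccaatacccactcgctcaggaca
*Pyy*, chr10:87562421-87562720, minus strand: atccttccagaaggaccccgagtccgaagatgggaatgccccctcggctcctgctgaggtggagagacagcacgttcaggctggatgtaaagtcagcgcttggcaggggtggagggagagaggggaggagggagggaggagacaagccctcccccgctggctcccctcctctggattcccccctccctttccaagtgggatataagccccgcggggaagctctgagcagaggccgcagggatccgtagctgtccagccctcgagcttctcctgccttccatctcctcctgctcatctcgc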

How the data were processed

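Per the labels, single cells were processed with the SMARTer and Nextera XT kits and sequenced as single reads on an Illumina HiSeq. The submitters' processing notes name CASAVA 1.8.2, BWA 0.5.9 and SAMtools 0.1.19. The authors deposited RPM for 27586 transcripts, in which a cell's mapped reads set the scale and transcript length plays no part. Values at the floor of 0.01 (69.7% of all) were set to 0, and the rows of a symbol were summed, which reads shared between near-identical genes could affect. The step between low values gave the mapped reads per cell (100% of values up to 20 reads within 0.1 of a whole read).

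The threshold of 1000 RPM came with the choice of genes, and members and lists were chosen with earlier results of these data known. The genes named were the members, *Ins1*, *Ins2*, *Iapp*, *Gcg*, genes of the lists, the 5 most like each member, and the 10 highest in each kind of high cell among genes read in 50% or more of them. Differences are of mean log2(RPM + 1), with a pseudocount of 1, and called at 1 or more. Lists covered δ, γ, α, β, ε, acinar, duct, endothelial, mesenchymal, immune and glial markers, peptide ligands and receptors, prohormone processing, islet transcription factors, retinoid handling and the cell cycle. The steps were tested on simulated data. No cell was left out of the main values, and 7 cells had under 20% of their reads on listed transcripts. Tables were made with pandas 2.3.3 and numpy 2.4.6 under Python 3.11.15, intervals with scipy 1.17.1, and plots with matplotlib 3.10.9.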

Additional observations from a re-analysis of the deposited data

How the results depend on the processing

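Over the alternatives tried for the main results, 62 values stayed within the counting interval, or within 1.5-fold for means and counts, and 49 moved beyond it. At 100 RPM the Ppy-high GNF4877 cells were 10 in place of 7. With that threshold for every hormone *Gcg* was found in 87.5% of Ppy-high DMSO cells and 70% of GNF4877 cells, each within its interval. Of all cells, 55.8% in DMSO and 46.4% in GNF4877 held 100 RPM or more of *Gcg*. Scaled to reads on listed transcripts the Sst-high GNF4877 cells were 3 in place of 2 (3.57%), the cell added being 57, with 97.2 RPM of *Sst* and 2.65% of its reads on listed transcripts. These Ppy-high and Sst-high shares of GNF4877 cells stayed within their intervals, and the other Sst-high and Ppy-high shares had the same counts of cells under these alternatives. At 10000 RPM the Sst-high share was 0 of DMSO cells and 2.38% of GNF4877 cells, and the Ppy-high share 3.49% and 5.95%, and with that threshold for every hormone *Ins1* was found in 33.3% and *Gcg* in 0 of these Ppy-high DMSO cells, and each in 20% of the GNF4877 cells. No DMSO cell was then Sst-high, so its overlaps had no value. Without DMSO cell 29 the *Ins1* share among Ppy-high DMSO cells was 100%.

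Most shares of cells with a read fell below their intervals at a higher minimum or a lower depth. At 10 RPM or more they were 22.1% (DMSO) and 21.4% (GNF4877) for *Sst*, 26.7% and 21.4% for *Ppy*, 9.30% and 7.14% for *Pyy*, 25.6% and 25% for *Rbp4*, and 1.16% for *Hhex* in DMSO. Thinned to 100000 reads, which left out 6 cells with fewer reads than that on listed transcripts, they were 32.1% for *Sst* in GNF4877, 36.1% and 40.7% for *Ppy*, 15.7% and 9.88% for *Pyy* and 1.20% for *Hhex* in DMSO, while *Sst* in DMSO (28.9%), *Rbp4* (28.9% and 28.4%) and *Hhex* in GNF4877 (2.47%) stayed within their intervals. In runs of 12 numbers without an Sst-high cell *Sst* was read in 15.4% and 38.3% of cells. In runs in which not every cell held it the shares were 15.4% and 26%. That choice of runs rests on the reads themselves and lowers the share by construction.

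Without the cell with the most of the gene, means were 24.3 and 200.5 RPM for *Sst*, 1449.8 RPM for *Ppy* in DMSO, 50.3 and 4.04 RPM for *Pyy*, and 0.0700 and 0.169 RPM for *Hhex*. Of the 5 genes most like each member, those shared with Spearman's rho were 1 for *Sst*, 3 for *Ppy*, 2 for *Pyy*, 1 for *Hhex* and 3 for *Rbp4*. In DMSO cells alone they were 1, 2, 3, 1 and 3 in that order, and in GNF4877 cells 0, 3, 1 and 1 for the members before *Rbp4*. With genes read in 30 or more cells they were 2 for *Sst*, 3 for *Pyy* and 2 for *Hhex*, and with values under 100 RPM set to 0, 3 for *Sst*.

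Without Sst-high cells that held 1000 RPM of *Ins1*, *Gcg* or *Ppy*, only GNF4877 cell 49 is left. The *Pyy* difference between Sst-high and other cells was then -0.78 in place of 2.73. A further 8 differences moved. Apart from what leaving out a cell, raising a threshold or leaving out runs in which every cell held *Sst* does by construction, the cause was not tested. Alternatives on cells 29 and 49, number runs, values under 100 RPM and cells with few reads on listed transcripts were chosen after seeing the data. No paired analysis was possible because shared cell numbers do not pair cells and each treatment is 1 sample.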

Other observations

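The lists not yet described gave these counts of genes higher or lower by 1 or more in mean log2(RPM + 1), beside 24.5% of all 14119 genes higher and 6.49% lower in Sst-high cells (29.6% higher without GNF4877 cell 49) and 7.66% and 2.27% in Ppy-high cells. Of 10 α markers, 0 were higher and 0 lower in Sst-high cells (4 and 0 without GNF4877 cell 49) and 3 were higher in Ppy-high cells. Of 9 β markers, 1 was higher and 4 lower in Sst-high cells (2 and 3 without cell 49), and 0 and 5 in Ppy-high cells. Of 6 duct markers, 1 was higher in each kind of high cell and 0 lower. None of the acinar (1), endothelial (1), mesenchymal (6), immune (4) and glial (1) markers read in 10 or more cells differed by 1 or more in either. *Iapp*, the amylin gene, was at 6222 and 5450 RPM in GNF4877 cells 37 and 49 and at 238 and 1277 RPM in DMSO cells 33 and 37, against a median of 669 RPM in the cells that were not Sst-high. Cell 49 thus held *Iapp* with 36.2 RPM of *Ins1* and 5.07 RPM of *Ins2*. *Slc2a2*, the glucose transporter gene of β cells, was at 6372 RPM in Ppy-high GNF4877 cell 50 and 7734 RPM in DMSO cell 31, both of which held *Ins1*.

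These values limit what can be read from the counts. With 4 Sst-high and 15 Ppy-high cells, intervals are wide, and 1 cell can set a mean. Each treatment is 1 sample, and the labels name no replicate culture or capture. A gene with no read was not detectable at this depth.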
